A study of Vitis vinifera with 6 samples.

Results

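The genes described here are the floral MADS-box genes of the A class (VviAP1, VviFUL1 and VviFUL2) and of the B class (VviAP3, VviTM6 and VviPI), with VviSOC1, a flowering-time gene of the same family. They were taken by identifier and are 7 of the 29536 genes read from the expression table. RNA-seq libraries were made from the seed content of berries of F1 table grape hybrids from a cross of Red Globe with Crimson Seedless. The seedless class held 3 hybrids, labelled sdi+, whose berries gave seed traces, and the seeded class held 3 hybrids, labelled sdi-, whose berries gave seeds. All hybrids were grafted on the same rootstock in 1 field, and berries 10 to 12 mm wide were picked 4 weeks after anthesis. Each library came from a different hybrid and from 12 to 50 pooled fruits of at least 2 clusters, so the spread within a class includes differences between plants. The libraries are called traces 1 to 3 and seeds 1 to 3 by their replicate numbers. In the titles, samples of the seeded class are written Seededless, but their other labels mark them as seeds of seeded hybrids, and every direction given here relies on those.

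MADS-box transcription factors bind DNA as pairs and assemble into larger complexes that fix the identity of floral organs. In Arabidopsis, the A-class gene APETALA1 specifies the floral meristem and the outer organs, and its paralogue FRUITFULL acts in fruit wall development. B-class proteins of the APETALA3 and PISTILLATA lineages bind DNA as a heterodimer and specify petals and stamens, and TM6 is an older branch of the APETALA3 lineage that Arabidopsis has lost. The seed coat, by contrast, is known for C-, D- and E-class genes and for the B-sister genes. SOC1 integrates flowering signals in the shoot apex.

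Levels are in RPKM, read counts scaled by gene-model length and by the total of the library, so that genes can be compared with each other. The totals by which the libraries were scaled, recovered from the steps of the low values, were 6576771 to 9267652 reads. Whether they hold all reads of a library is not stated in the sources used here. On these totals, 3 reads on a gene model of 1 kb are worth 0.324 to 0.456 RPKM. Read counts, intervals and such floors below cover counting error only. A gene is called on in a class at 1 RPKM or more in all 3 libraries, silent below 3 reads in all 3 libraries, and mixed otherwise. The 5 listed seed coat and ovule markers, among them AGL11, LAR1 and MYBPA1, were each at 19.1 RPKM or more in every library and summed to 360.9 to 613.6 RPKM in traces and 1048 to 1308 RPKM in seeds. The 2 markers of coloured berry skin, MYBA1 and UFGT, summed to at most 0.3724 RPKM in any library. They mark coloured skin only, so this does not show whether uncoloured skin or other berry tissue was carried over. Trace 1 stood apart from the other traces, with correlations to them across genes of 0.847 and 0.862 where traces 2 and 3 reached 0.944. Traces 2 and 3 correlated with the seeds at 0.866 to 0.889, above their correlations with trace 1. Trace 1 correlated with the seeds at 0.728 to 0.743. Values without trace 1 are given below for VviFUL2 and VviAP3.

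Most of these floral genes were silent in the seed 4 weeks after anthesis. In traces 1 of 7 was on (VviAP3), 1 was mixed (VviTM6) and 5 were silent. In seeds 2 of 7 were on (VviAP3 and VviFUL2), VviTM6 was again mixed, and VviAP1, VviFUL1, VviPI and VviSOC1 were silent. Over all 29536 genes, 58.9% had at least 1 RPKM in all 3 seedless libraries and 56.6% in all 3 seeded libraries. The share of all genes that were silent by the 3-read rule was not computed. A lower limit of 0.5 RPKM would add VviTM6 to the genes on in seeds, and so would leaving out seed 3.

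**Figure D1:**
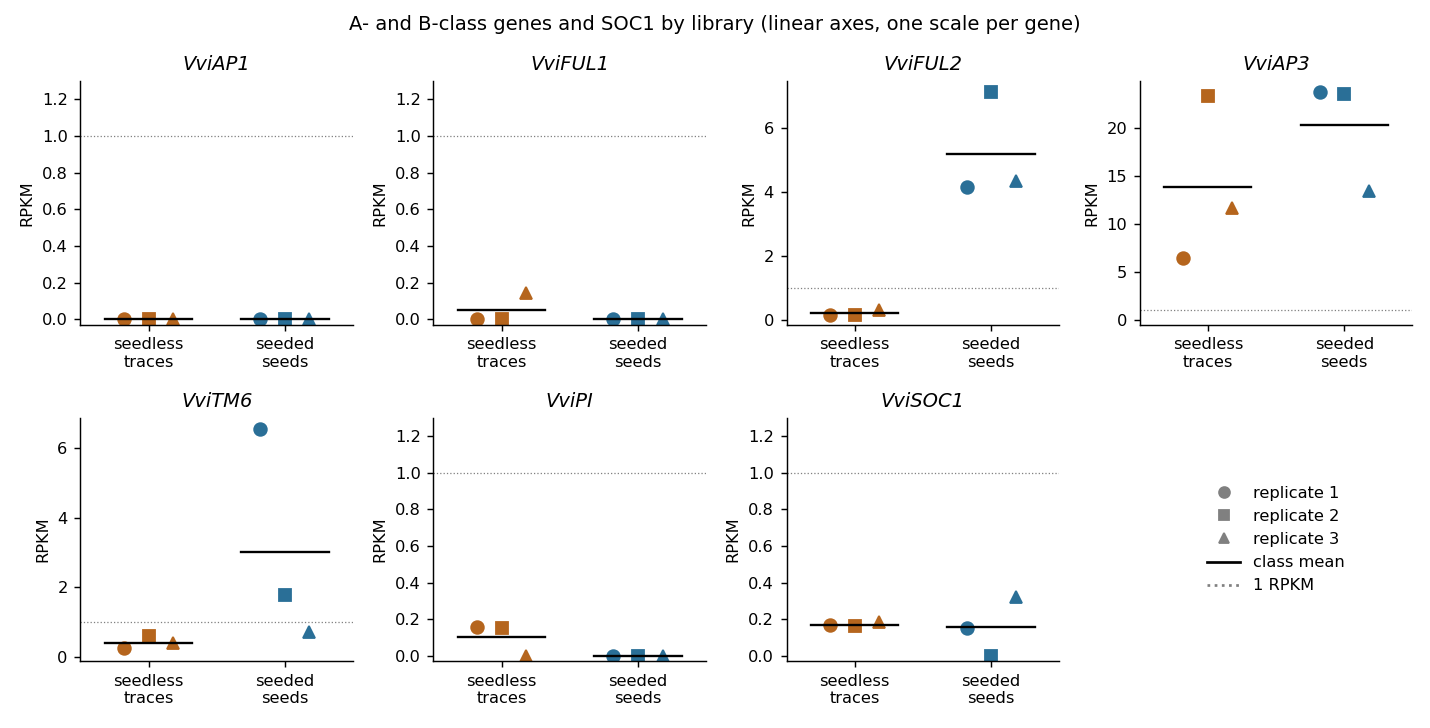
RPKM of each A- and B-class gene and VviSOC1 in the 3 seedless (brown) and 3 seeded (blue) libraries, with 1 symbol per replicate, the class mean as a black line and a linear axis of its own for each gene. VviAP3 is above 6 RPKM in every library, VviFUL2 is above 4 RPKM in seeds alone, and VviAP1, VviFUL1, VviPI and VviSOC1 stay under 0.4 RPKM in every library.

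Among the A-class genes, VviFUL2 differed between the classes. VviFUL2 (VIT_14s0083g01030), a FRUITFULL paralogue on chromosome 14, stood at 0.146, 0.140 and 0.319 RPKM in traces 1 to 3 and at 4.16, 7.13 and 4.34 RPKM in seeds 1 to 3. Every trace was far below every seed, and the traces did not reach the level of 3 reads. The reads behind these values were 1, 1 and 2 in traces and 31, 63 and 31 in seeds. Over the class, 4 reads in traces correspond to 0.198 RPKM (exact Poisson 95% interval 0.0539 to 0.506) and 125 reads in seeds to 5.33 RPKM (4.44 to 6.35). Mean levels were 0.202 ± 0.101 RPKM in traces and 5.21 ± 1.66 RPKM in seeds (SD, n = 3 each), which makes the mean of seeds 25.8-fold higher. In bulk tissue, fewer cells of a type and less RNA per cell cannot be told apart. The summed seed coat and ovule markers given above were also lower in each trace than in each seed, and their part in this result was not tested.

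On the log2(RPKM + 1) scale, which understates the change of low genes, the difference of VviFUL2, traces minus seeds, was -2.34 (SE 0.27, 95% interval -2.98 to -1.70) and passed (limma, adjusted p = 0.00690), each of the 3 traces lying below each of the 3 seeds. Of the 7 genes only VviFUL2 and VviAP3 passed the filter of 1 RPKM in at least 3 libraries, and VviFUL2 passed it through the seeds alone, so that it had to differ. With no filter on low values the limma adjusted p was 0.00941. Among the genes tested with the filter, 12.3% were called in either direction and 5.10% as lower in traces, and 1 call among 2 tested genes is too few to read against that background. With no filter, 3.12% were called as lower in traces. The log2 difference was -4.31 with limma's voom on recovered reads (adjusted p = 0.0172) and -4.14 with a pseudocount of 0.1 (limma, adjusted p = 0.00736). Leaving out trace 1 gave -2.31 on the log2(RPKM + 1) scale (limma, adjusted p = 0.00716). Its limma adjusted p was 0.00299 to 0.0356 over 15 alternatives, but all of these except the fit with no filter took VviFUL2 in through the seeds alone, so their number adds no support. A filter of 5 RPKM removed it.

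VviAP1 (VIT_01s0011g00100), the APETALA1 gene on chromosome 1, was listed at 0 in all 6 libraries. VviFUL1 (VIT_17s0000g04990), the FRUITFULL gene on chromosome 17, was listed at 0 in 5 libraries and at 0.145 RPKM in trace 3, which the smallest whole-read solution gives as 1 read. With the gene length of that solution, which 1 value does not settle, 0 reads over the seeded class allow up to 0.117 RPKM at a count of 3. Thus 1 of the 3 A-class genes gave more than 1 read in any library, and that gene did so in all 3 seeds and 1 of 3 traces. Rows at 0 in all 6 libraries made up 16.9% of the table.

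The B-class genes were expressed unequally. VviAP3 (VIT_18s0001g13460), the APETALA3 gene on chromosome 18, had 6.43, 23.4 and 11.7 RPKM in traces 1 to 3 and 23.7, 23.6 and 13.5 RPKM in seeds 1 to 3. Trace 2 was as high as the 2 higher seeds, the lowest seed was near trace 3, and the classes overlapped. These values rest on 42 to 199 reads per library. VviAP3 thus ranked above 41.4% to 72.6% of the detected genes of a library. Traces averaged 13.8 ± 8.67 RPKM and seeds 20.3 ± 5.88 RPKM (SD, n = 3 each).

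For VviAP3 the log2 difference was -0.65 (SE 0.45, 95% interval -1.73 to 0.44), short of the threshold (limma, adjusted p = 0.368). The interval reaches from well below 0 to above it. Leaving out trace 1, the lowest library for VviAP3, gave -0.23, and leaving out trace 2, the highest trace, gave -1.09 (limma, adjusted p = 0.702 and 0.111). Neither value passed.

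VviPI (VIT_18s0001g01760), the PISTILLATA gene also on chromosome 18, encodes the obligate partner of APETALA3 in Arabidopsis. It was listed at 0.157, 0.151 and 0 RPKM in traces 1 to 3 and at 0 in each seeded library. By the smallest whole-read solution this is 2 reads over the 3 traces and 0 over the 3 seeds, where VviAP3 had 271 and 460 reads. Per length, VviAP3 was 132-fold above VviPI in traces (exact binomial 95% interval 36.2 to 1095). In seeds it was at least 149-fold higher, taken against 3 reads over the class and with no counting error on VviAP3, and the exact binomial 95% interval begins at 121-fold. VviAP3 transcripts were thus present in every library with its partner gene at or under the floor.

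VviTM6 (VIT_04s0023g02820), the second APETALA3-lineage gene, lies on chromosome 4. Its levels were 0.242, 0.581 and 0.396 RPKM in traces 1 to 3 and 6.56, 1.78 and 0.695 RPKM in seeds 1 to 3. The seeds differed among themselves by 9.43-fold, and seed 1 held 59 of the 84 reads of its class. Each trace was below each seed, but by a narrow margin: trace 2 had 5 reads and seed 3 had 6, with Poisson 95% intervals of 0.189 to 1.36 and 0.255 to 1.51 RPKM. Of the genes tested with the filter, which VviTM6 did not pass, 20.5% were likewise lower in each trace than in each seed.

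VviTM6 averaged 0.406 ± 0.170 RPKM in traces and 3.01 ± 3.12 RPKM in seeds (SD, n = 3 each). With 1 RPKM or more in 2 libraries it was under the filter. In the fit with no filter the log2 difference was -1.23 (95% interval -2.51 to 0.05), short of the threshold (limma, adjusted p = 0.197). Voom on recovered reads with no filter, a fit added after the values of VviTM6 were seen, gave -2.23 (95% interval -4.52 to 0.07; limma, adjusted p = 0.184); it called 3.28% of its genes as lower in traces. Neither difference passed the threshold, and both intervals include 0.

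VviTM6 was below VviAP3 in every library. Within each class both genes had the same order of libraries, with trace 2 highest and trace 1 lowest among traces and seed 1 highest and seed 3 lowest among seeds, although seeds 1 and 2 were nearly equal for VviAP3 and the traces of VviTM6 rest on 2 to 5 reads. The sizes differed: seeds 1 and 2 were at 23.7 and 23.6 RPKM for VviAP3 and at 6.56 and 1.78 RPKM for VviTM6.

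VviSOC1 (VIT_15s0048g01250) on chromosome 15 was silent in both classes. Its levels were 0.168, 0.161 and 0.183 RPKM in traces 1 to 3 and 0.154, 0 and 0.322 RPKM in seeds 1 to 3. These are 3 reads in each class, and at this depth no difference was detectable.

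The 7 genes were set beside 15 further identifiers listed as MADS-box genes, 12 of which passed the filter. In traces 4 of these were called lower, 2 higher and 6 neither way (limma, adjusted p under 0.05), where 12.3% of all tested genes were called in either direction and 5.10% as lower in traces. The median log2 difference of these 12 was -0.57 beside -0.04 for all tested genes, and with no filter it was -0.28 over 14 listed genes beside 0.03. The C-class gene AG1 (VIT_12s0142g00360) had a log2 difference of -3.21 and the E-class gene SEP1 (VIT_14s0083g01050) one of -2.23 (limma, adjusted p = 0.00142 and 0.00585). VIT_10s0003g02070 and MADS3 (VIT_15s0048g01270) were called lower at -1.06 and -0.74 (limma, adjusted p = 0.0140 and 0.0438). VIT_17s0000g05000 and VIT_01s0011g00110 rose by 1.45 and 1.13 in log2 terms (limma, adjusted p = 0.0121 and 0.0236). When seed 2 or seed 3 was left out, 2 were called lower, AG1 and SEP1, and 0 higher. Membership of the list was recalled, and the list was chosen with earlier results of these data known.

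**Figure D2:**
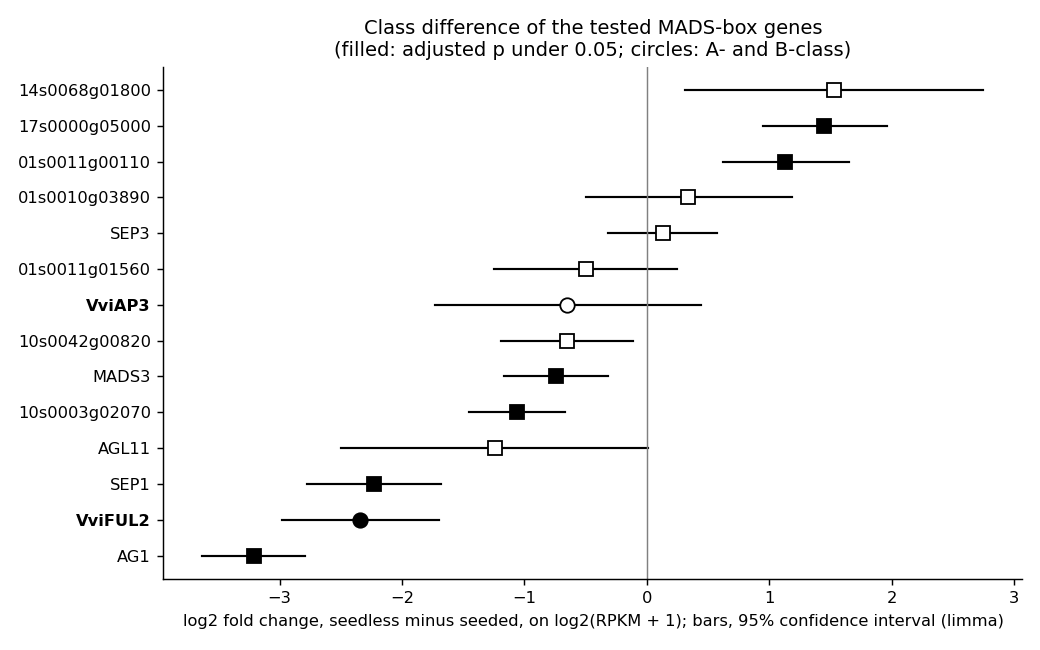
Log2 difference, seedless minus seeded, on log2(RPKM + 1), with limma's 95% confidence interval, for the A- and B-class genes above the filter (circles, bold names) and the 12 other listed MADS-box genes above it (squares), filled where the adjusted p is under 0.05. VviFUL2 is at -2.34, but it passed the filter through the seeds alone and so had to differ. The interval of VviAP3 crosses 0. The order depends on the pseudocount: AG1 is at -3.21 here, but with a pseudocount of 0.1 VviFUL2 is at -4.14 and AG1 at -3.36.

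By level, VviAP3 stood in the middle of the MADS-box order and the other A- and B-class genes below it. In seeds the D-class gene AGL11 was highest of the 22 genes at 282.3 RPKM, followed by SEP3 at 119.9 RPKM. VviAP3 was 10th at 20.3 RPKM, with libraries that did not overlap with those of the genes next above and below it. VviFUL2 was 12th at 5.21 RPKM. Its libraries were below those of the gene above, and its lowest, at 4.16 RPKM, was within counting error of the highest of the gene below, VIT_17s0000g05000, at 4.15 RPKM. VviTM6 was 14th at 3.01 RPKM, not separable from either. VviSOC1, VviAP1, VviFUL1 and VviPI stood from position 16 to 21, among listed genes at or near 0.

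In traces VviAP3 was again 10th, at 13.8 RPKM, and its libraries overlapped with those of SEP1 above and VIT_17s0000g05000 below. VviTM6, VviFUL2, VviSOC1, VviPI, VviFUL1 and VviAP1 took positions 15 to 20, all under 0.6 RPKM. The gene at position 13, AG1 at 7.45 RPKM, was apart from the low group.

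**Figure D3:**
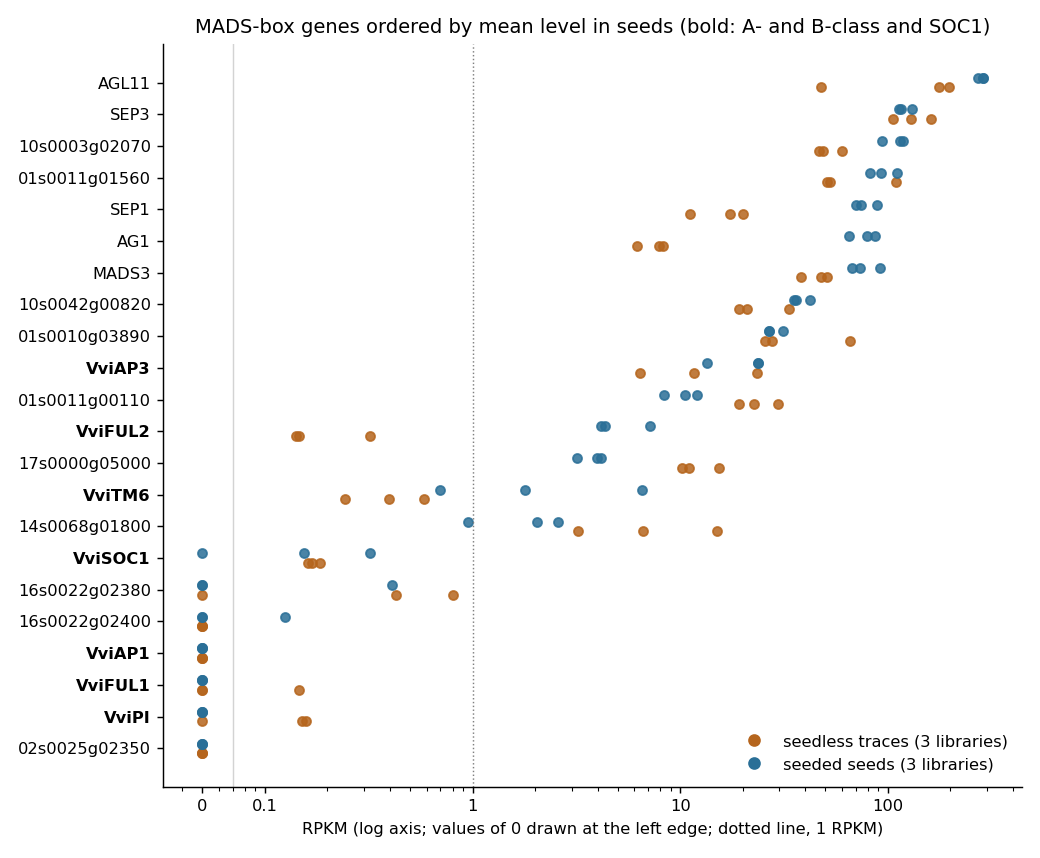
RPKM on a log axis for the 7 genes (bold) and 15 other listed MADS-box genes, ordered by mean level in seeds, with 1 point per library (brown, seedless; blue, seeded) and values of 0 drawn at the left edge. VviAP3 lies mid-order at 6.43 to 23.7 RPKM, VviFUL2 is at 4.16 to 7.13 RPKM in seeds and at most 0.319 RPKM in traces, the points of VviTM6 nearly meet between the classes, and the other 4 bold genes stay under 0.4 RPKM.

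Position gave a further view of the silent genes. Next to VviAP1 in identifier order lies VIT_01s0011g00110, at 29.7, 19.2 and 22.7 RPKM in traces 1 to 3 and 10.5, 12.0 and 8.32 RPKM in seeds 1 to 3. Next to VviFUL1 lies VIT_17s0000g05000, at 15.3, 11.1 and 10.2 RPKM in the same traces and 3.98, 3.18 and 4.15 RPKM in the seeds. Both of these neighbours are on the list of MADS-box genes, both were expressed in every library, and both rose in traces beside an A-class gene that stayed silent. The rows on the other side, VIT_01s0011g00090 and VIT_17s0000g04980, were listed at 0 in all 6 libraries.

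VviFUL2 showed another arrangement. Its neighbour in identifier order is SEP1, at 11.1, 20.05 and 17.3 RPKM in traces 1 to 3 and 74.4, 88.7 and 70.4 RPKM in seeds 1 to 3. In the RefSeq assembly ASM3070453v1 the genes named VviFUL2 and VviSEP1 are direct neighbours as well. Both were lower in each trace than in each seed, as were 20.5% of all tested genes, with class means 25.8-fold and 4.81-fold higher in seeds; whether these folds differ was not tested. The row on the other side, VIT_14s0083g01020, had 10.7 to 16.5 RPKM and a log2 difference of 0.22, short of the threshold (limma, adjusted p = 0.449).

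Beside VviSOC1, VIT_15s0048g01240 and VIT_15s0048g01260 were low as well, at no more than 0.599 and 2.40 RPKM. MADS3, which follows them, had 38.3 to 50.8 RPKM in traces and 67.1 to 91.4 RPKM in seeds. Around the B-class genes, no neighbour that passed the filter was called. VIT_18s0001g13490, beside VviAP3, had 5.57, 2.93 and 2.15 RPKM in traces and 1.15, 0.972 and 1.03 RPKM in seeds, opposite in direction to VviAP3, and its log2 difference of 1.08 was short of the threshold (limma, adjusted p = 0.0709). With library weights it passed, at 0.85 (limma, adjusted p = 0.0475; 0.0475 to 0.190 over 15 alternatives). On the other side of VviAP3, VIT_18s0001g13450 was listed at 0 in all 6 libraries and was not tested. The rows beside VviTM6, VIT_04s0023g02810 and VIT_04s0023g02830, had 15.0 to 29.6 RPKM and 23.4 to 27.3 RPKM, with log2 differences of -0.31 and -0.03 (limma, adjusted p = 0.471 and 0.882). Beside VviPI, which had at most 0.157 RPKM, VIT_18s0001g01770 had 8.82 to 14.9 RPKM in every library. VIT_18s0001g01750, on the other side, was low, at 0, 1.08 and 0 RPKM in traces 1 to 3 and 1.03, 0.870 and 1.08 RPKM in seeds 1 to 3 (log2 difference -0.64, limma adjusted p = 0.272).

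**Figure D4:**
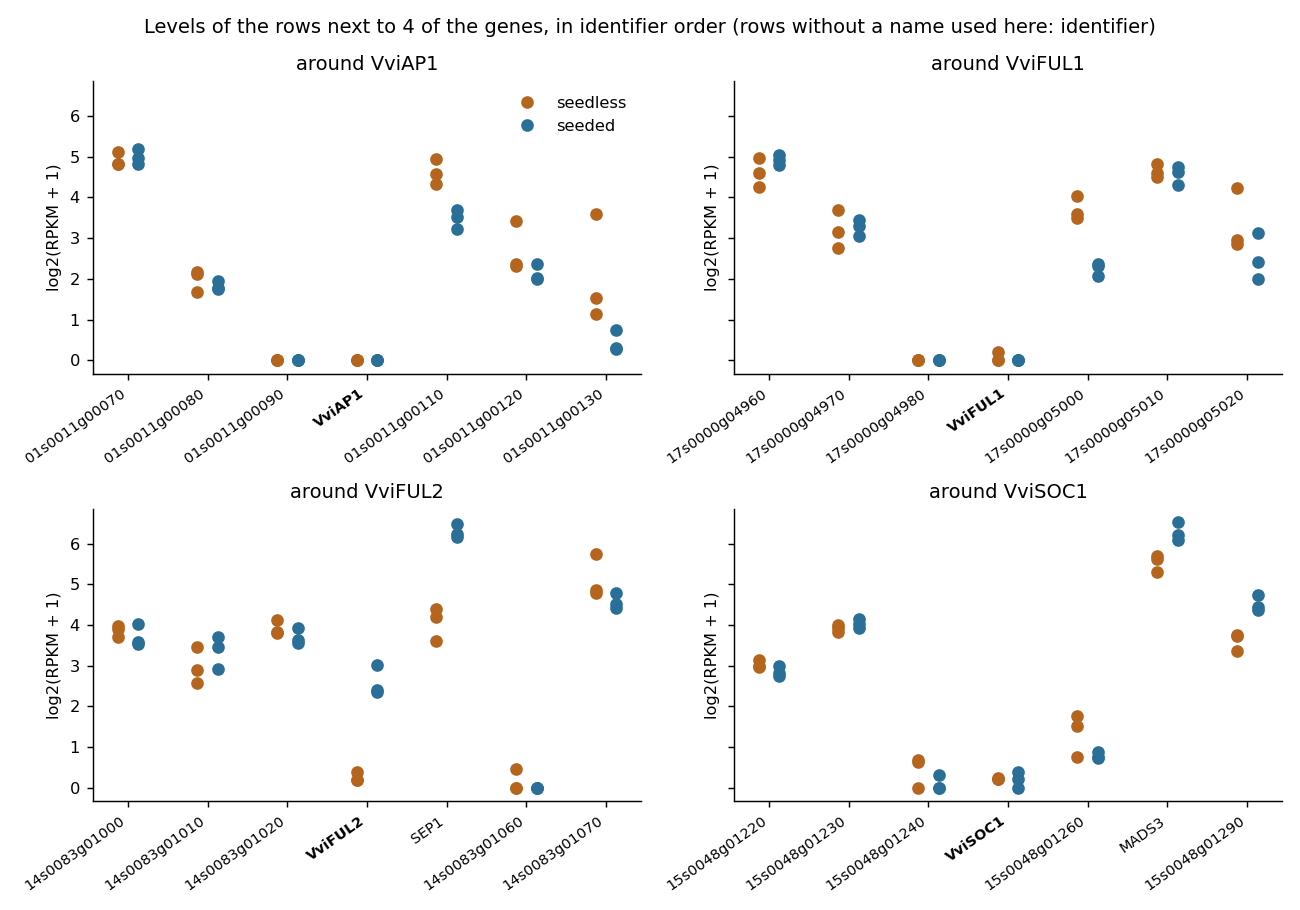
log2(RPKM + 1) in each library (brown, seedless; blue, seeded) for VviAP1, VviFUL1, VviFUL2 and VviSOC1 (bold, centre) and the 3 table rows on either side in identifier order. VviAP1 and VviFUL1 sit at or near 0 beside an expressed MADS-box row that is higher in traces, and VviFUL2 sits beside SEP1, both being higher in seeds.

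Of the 18748 other tested genes, the one closest to VviFUL2 in level over the 6 libraries was VIT_13s0320g00020. It had 0, 0.117 and 0.267 RPKM in traces and 6.63, 6.15 and 3.86 RPKM in seeds, a root mean square difference of 0.26 on the log2(RPKM + 1) scale. The gene closest to VviAP3 was VIT_08s0058g00450, at 6.83, 30.2 and 8.83 RPKM in traces and 23.6, 25.7 and 12.8 RPKM in seeds, with a difference of 0.22. No name is given for these identifiers in the sources used here. TFL1A (VIT_06s0080g00290), a repressor of floral identity in Arabidopsis, was listed at 0 in all 6 libraries. VIT_17s0000g00150, a further listed floral regulator, was at 0 in 5 libraries and at 0.221 RPKM in seed 3.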

How the data were processed

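The values are RPKM as deposited by the authors in 1 table, with gene IDs of 12X V1, per the file headers. Libraries were stranded mRNA, per the labels' protocols. TopHat2 2.0.13 and HTSeq 0.5.4p5, as well as edgeR 2.2.6, are listed in the submitters' processing notes with no role. The genome build and the counting's strand setting are not given in the sources used here. Of 29548 rows, 12 with a doubled decimal point were left out. Whole reads were recovered from the RPKM steps for 23747 of the 24536 genes above 0; for genes with few reads the smallest whole-read solution was taken.

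The 18749 genes that reached 1 RPKM in 3 or more libraries were compared as log2(RPKM + 1) with limma 3.58.1 in R 4.3.3 (eBayes with trend, two-sided, Benjamini-Hochberg over all tested genes, threshold 0.05), checked on simulated data. Alternatives changed the pseudocount, filter, scaling, variance model, library weights and replicate block, used voom on recovered reads, and left out each library. Python 3.11.15, numpy 2.4.6, pandas 2.3.3, scipy 1.17.1 and matplotlib 3.10.9 did the rest. The planned ratios of VviFUL1 to VviFUL2 and VviAP3 to VviTM6 were not computed, since 1 gene of each pair was under the filter.

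Genes named were the 7 genes, the rows next to them within 50 identifier numbers, listed MADS-box and floral genes that passed or lay near them, and the closest tested gene. The 7 genes and the lists were chosen with earlier results of these data known; names were recalled from the published grapevine catalogue. The RefSeq table (ASM3070453v1) matched 0 identifiers, but held 6 of the 7 names (not VviFUL1) as a symbol or synonym, with or without the species prefix, on the chromosome the identifier gives; this does not tie a name to an identifier. Listed genes are named where the same held, or by neighbour order (MADS3, the second gene after SOC1 in both); MYBA1 is from recall alone. Others keep their identifier. Of 3 floral regulators, FT was not analysed here. Reads of near-identical paralogues may be split between them or left uncounted, which would lower their levels.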

Additional observations from a re-analysis of the deposited data

How the results depend on the processing

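VviFUL2 was lower in traces in all 15 alternatives that tested it (log2 fold change -4.31 to -2.13; limma adjusted p 0.00299 to 0.0356), but a filter it met through the seeds alone admitted it to all of these except the fit with no filter, so they are no independent support. VviAP3 stayed negative and short of the threshold in all 16 (-1.09 to -0.23; 0.111 to 0.702). A filter of 5 RPKM removed VviFUL2 and so left 0 of the 7 genes called. Of all genes, 2303 were called; library weights raised this to 3603, and leaving out 1 library gave 429 to 2909. Of the listed MADS-box genes 6 were called, and 2 to 7 without 1 library; AG1 and SEP1 were called in each of 16 alternatives, and MADS3 lost the threshold in 8. With a replicate block, 1714 genes and 6 of the list were called, and VviFUL2 kept its call (limma adjusted p = 0.0289). The deviations of same-numbered libraries correlated at 0.07, 0.18 and 0.10, so the numbers are not taken to pair the hybrids. Directions turned only for uncalled genes: without 1 library the log2 difference ranged from -0.03 to 0.27 for SEP3, -0.08 to 0.58 for VIT_01s0010g03890, -0.10 to 0.01 for VIT_04s0023g02830 and -0.08 to 0.26 for VIT_18s0001g01770, the last also turning to -0.03 with quantile normalization or equal medians. The causes were not tested. At this depth, a level under about 0.4 RPKM in 1 library rests on about 3 reads or fewer at 1 kb. Such levels are too low to be told apart from each other.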
